A study of Mus musculus with 23 samples.

Results

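The nuclear-encoded subunits of respiratory chain complexes I to IV were measured in mammary fat pad beside a breast tumor. They were chosen as a fixed list of 58 genes (35 of complex I, 4 of complex II, 9 of complex III and 10 of complex IV), out of 47311 genes in the deposited files. All 58 were among the 19882 genes with enough reads to be tested, and the lowest estimated count of any of them in a library was 311 (Ndufb4). No gene of the mitochondrial genome was among the genes summed, so the subunits encoded there were not analysed here.

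The series holds poly(A) RNA-seq of 23 female C57BL/6J mice, 1 library per mouse. Obese mice were fed a diet with 60% of its energy from fat from 8 to 26 weeks of age. Lean mice are labelled as fed a low-fat diet with 10% of its energy from fat, although the treatment text of all samples describes the high-fat diet alone. Every mouse carried a tumor grown from 250000 E0771-luciferase cells, a mouse mammary carcinoma line with a light-producing reporter, placed in the mammary gland numbered 4. Starting 3 days later, each mouse was injected every 3 days, until day 21, with 200 µg of either anti-PD-1, which blocks an inhibitory receptor on T cells, or the isotype control antibody IgG2a. There were 8 mice in the group of obese mice given anti-PD-1 and 5 in each of the other groups, named here by diet state and antibody. No group was free of tumor or of antibody. The labels do not say whether mice of a group shared a cage or a day, so p-values measure the spread between these mice.

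The respiratory chain passes electrons from NADH and succinate to oxygen. Complex I oxidises NADH, complex II oxidises succinate and is also an enzyme of the citric acid cycle, complex III hands electrons to cytochrome c, and complex IV reduces oxygen to water. Brown and beige fat cells are rich in these complexes, white fat cells hold fewer mitochondria, and the factors NRF1, GABPA and ERRα, with their PGC-1 coactivators, are known to drive the nuclear genes of the chain.

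Promoter sequence is shown for the subunit of smallest p-value under IgG2a in each complex among those with a RefSeq entry (GRCm38.p6), and for the tissue isoforms of complex IV that fell most. Each run is the 250 bases before the annotated start, 5′ to 3′ on the gene's strand, with capitals marking motif matches on either strand. The windows are chr1:92473759-92474008 (minus strand) for Ndufa10, chr13:74350241-74350490 (minus) for Sdha, chr9:108936398-108936647 (plus) for Uqcrc1, chr5:115348959-115349208 (minus) for Cox6a1, chr7:30183921-30184170 (plus) for Cox7a1 and chr7:140900447-140900696 (minus) for Cox8b.
Ndufa10: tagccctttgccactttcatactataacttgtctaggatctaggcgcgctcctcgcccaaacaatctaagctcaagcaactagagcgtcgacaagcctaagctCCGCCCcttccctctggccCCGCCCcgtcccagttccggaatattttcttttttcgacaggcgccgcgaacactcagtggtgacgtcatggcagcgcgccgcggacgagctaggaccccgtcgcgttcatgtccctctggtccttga
Sdha: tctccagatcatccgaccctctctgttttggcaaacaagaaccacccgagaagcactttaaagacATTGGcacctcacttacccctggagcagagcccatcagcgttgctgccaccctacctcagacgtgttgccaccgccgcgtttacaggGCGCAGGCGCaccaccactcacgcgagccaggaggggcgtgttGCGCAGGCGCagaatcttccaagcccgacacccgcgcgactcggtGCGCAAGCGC
Uqcrc1: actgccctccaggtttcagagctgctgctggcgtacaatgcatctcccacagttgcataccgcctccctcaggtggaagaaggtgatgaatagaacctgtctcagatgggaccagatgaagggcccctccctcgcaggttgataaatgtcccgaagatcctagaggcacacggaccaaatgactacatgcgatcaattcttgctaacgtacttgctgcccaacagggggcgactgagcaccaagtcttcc
Cox6a1: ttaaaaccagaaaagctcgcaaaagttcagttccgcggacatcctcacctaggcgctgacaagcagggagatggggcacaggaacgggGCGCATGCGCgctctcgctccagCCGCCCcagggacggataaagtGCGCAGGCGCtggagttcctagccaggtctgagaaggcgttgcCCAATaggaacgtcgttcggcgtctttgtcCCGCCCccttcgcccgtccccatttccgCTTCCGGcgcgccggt
Cox7a1: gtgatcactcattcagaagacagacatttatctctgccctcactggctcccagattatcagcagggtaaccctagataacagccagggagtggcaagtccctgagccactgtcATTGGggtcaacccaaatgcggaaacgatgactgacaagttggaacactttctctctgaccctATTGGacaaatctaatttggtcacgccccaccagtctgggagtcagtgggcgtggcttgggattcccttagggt
Cox8b: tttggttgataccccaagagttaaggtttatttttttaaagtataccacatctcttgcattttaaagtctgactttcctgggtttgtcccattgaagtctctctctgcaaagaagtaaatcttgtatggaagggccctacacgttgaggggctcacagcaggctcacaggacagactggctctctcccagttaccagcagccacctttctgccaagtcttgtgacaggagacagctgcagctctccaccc
In the Sdha window the capitals mark 3 matches to the NRF1 site (GCGCA, any base, then GCGC) and 1 CCAAT box, read on the opposite strand. The Cox6a1 window holds 2 NRF1 matches, 1 ETS site of GABPA (CCGGAAG), 2 SP1 GC boxes (GGGCGG) and 1 CCAAT box. Ndufa10 has 2 GC boxes, Cox7a1 has 2 CCAAT boxes, and neither Uqcrc1 nor Cox8b holds any of the letters searched in this window. Promoters were found for 48 of the 58 subunits (50 windows, among 32851 of all genes). The remaining 10 were Ndufa2, Ndufb9, Ndufs1, Sdhc, Uqcrc2, Uqcrb, Uqcrq, Cyc1, Cox4i1 and Cox6c. NRF1 letters were in 20% of the subunits' windows and 3.74% of all windows, and ETS letters in 16% and 6.91%. The ERR half-site AAGGTCA was in 6% and 4.08%, the GC box in 36% and 32.7%, CCAAT in 36% and 33.8%, and TATAAA in 10% and 12.4%. The YY1 core AAGATGGC was in 0 of the 50 windows and in 1.56% of all. Median GC content was 57.6% in the subunits' windows and 52.4% in all. The palindromic NRF1 site, with T at the open base and counted among the NRF1 matches, was in 4% (Cox6a1 and Ndufa11) and 0.782%.

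Depth lay between 49438121 and 77369057 estimated counts per library. Libraries differed in tissue markers. B cell genes were high in 11 libraries, found in every group but more often among lean mice. Under IgG2a the median of their score (mean log2 level of 10 genes) was 5.79 in lean mice and -0.57 in obese ones. Under anti-PD-1 it was 5.75 and -1.96. Muscle genes stood out in 5 libraries, obese IgG2a 3 and the libraries numbered 1 and 2 of both lean groups, and Ckm reached 574 CPM (counts scaled to a common library total, with TMM factors) in lean IgG2a 1. Liver genes were high in obese IgG2a 5 (Alb 6363 CPM, at most 222 elsewhere). Adipoq, a defining gene of fat cells, was between 306 and 3376 CPM in every library, as fits the labelled tissue.

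In obese fat pad the summed level of the 58 subunits was 42.6% of lean under IgG2a and 42.9% under anti-PD-1, in CPM. Under IgG2a, 34 of 58 subunits fell and 0 rose (edgeR's quasi-likelihood test, adjusted p under 0.05 over all genes tested), where 3.12% of all genes fell. Their median log2 fold change was -1.21, against 0.12 over all genes, which puts the median subunit at 43.1% of its lean level. Under anti-PD-1, 46 of 58 fell and 0 rose, where 4.85% of all genes fell, and the median was -1.22, against 0.08 over all genes. All 58 fitted changes were below 0 in both comparisons, from -1.71 (Uqcrq) to -0.61 (Ndufa2) under IgG2a and from -1.88 (Uqcrq) to -0.46 (Ndufb3) under anti-PD-1. The comparisons use different mice but share 1 fit and its estimate of spread. In that fit 31 subunits fell in both, 49 in at least 1 and 9 in neither. The share of all genes that fell in both is not given here. Bulk RNA cannot tell fewer cells of a type from less RNA per cell.

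**Figure D1:**
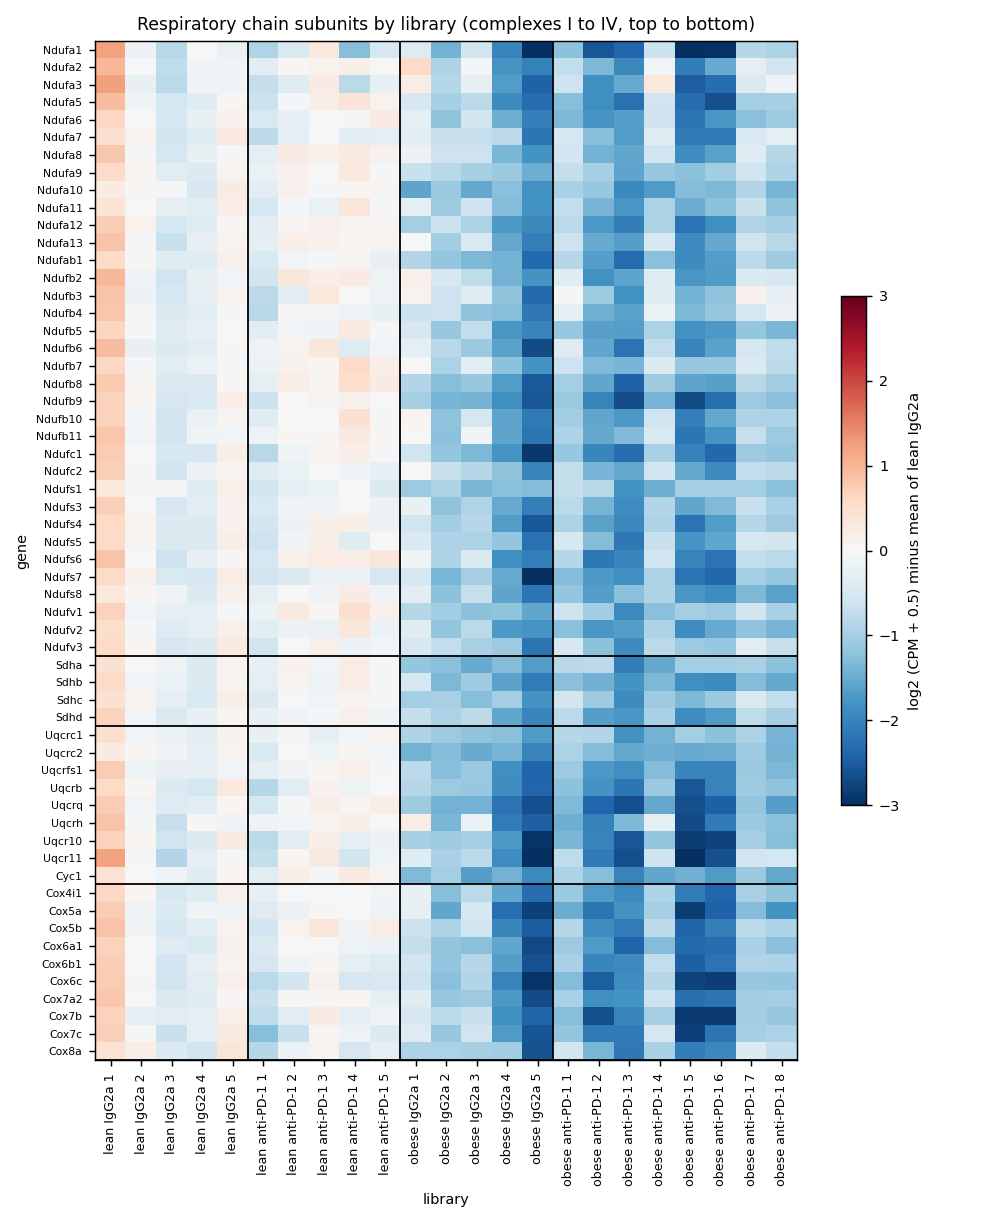
Level of each of the 58 subunits (rows, complexes I to IV from top to bottom) in each of the 23 libraries (columns), as log2 (CPM + 0.5) minus the mean of lean IgG2a, from blue (lower) to red (higher). The obese libraries are mostly blue, lean IgG2a 1 is the reddest column and obese IgG2a 5 is among the bluest.

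Summed over the 58 genes, the chain took 21565, 13742, 10447, 10823 and 14869.6 CPM in lean IgG2a 1 to 5 and 9222, 6322, 7134, 4789 and 2969.5 in obese IgG2a 1 to 5. Under anti-PD-1 it took 10168, 13336, 14009.6, 14078 and 13031 CPM in lean mice, and the lowest, median and highest obese values were 3559, 5625 and 7558. Lean IgG2a 1 was the highest library and obese IgG2a 5 the lowest, and no obese library reached a lean one under the same antibody. Within the obese anti-PD-1 mice, libraries 2, 3, 5 and 6 held 4791, 3559, 3802 and 4008 CPM and libraries 1, 4, 7 and 8 held 7182, 6966, 7558 and 6459. The B cell-rich libraries of this group, 3 and 4, lay on either side of that gap.

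By complex, the summed CPM of obese IgG2a mice was 45.8% of lean for complex I, 40.2% for II, 38.6% for III and 42.1% for IV. Under anti-PD-1 the values were 45.4%, 44.9%, 38.6% and 41.6%. Obese and lean libraries did not overlap in the summed CPM of any complex under either antibody. For complex I under IgG2a the gap was narrow, with obese IgG2a 1 at 3792 and lean IgG2a 3 at 3812 CPM. As a percent of each library's counts, without TMM factors, these libraries overlapped. Obese IgG2a 1 exceeded lean IgG2a 3 for complex I (0.404% against 0.385%) and complex IV (0.326% against 0.319%). In TPM, which is scaled per transcript length and not by TMM, obese IgG2a mice had 54.1%, 52.3%, 47.2% and 50.1% of lean for complexes I to IV. Obese anti-PD-1 mice had 62.0%, 66.0%, 51.4% and 58.2%, and there the groups overlapped for complexes I and IV and for the sum of all 58. On log2 (TPM + 1) with limma the median of all genes was 0.19 under IgG2a and 0.27 under anti-PD-1, a shift of over 0.1 in the latter. The median subunit was at -0.91 and -0.80, or at -1.10 and -1.08 relative to those medians. Before the median of all genes was subtracted, Ndufb4 alone turned above 0, under anti-PD-1.

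**Figure D2:**
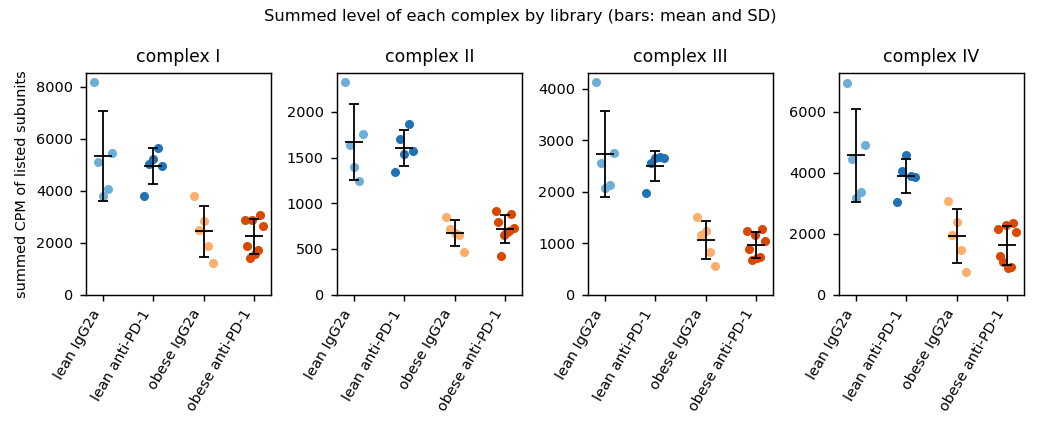
Summed CPM of the listed subunits of each complex, 1 point per library by group, with the mean and SD of the group in black. In each panel every obese library lies below every lean library given the same antibody.

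Complex I is the largest complex, and its NADH-binding and iron-sulfur core is built from Ndufv and Ndufs subunits. Under IgG2a 18 of its 35 genes fell (median -1.09), and under anti-PD-1 26 of 35 (median -1.11). Ndufa10 (chr1:92439010-92473860 in GRCm38, minus strand), an accessory subunit, had the smallest p-value of the complex. It was at 292, 253, 239, 178 and 292 CPM in lean IgG2a and 82.2, 114, 85.1, 103 and 69.7 in obese IgG2a mice. It was at 199, 270.4, 237, 256 and 263 CPM in lean anti-PD-1 mice, and its lowest, median and highest values in obese anti-PD-1 mice were 64.2, 98.2 and 134. The groups did not overlap under either antibody. The gene fell by 1.47 (log2, SE 0.20, edgeR adjusted p = 0.00011) under IgG2a and by 1.29 (SE 0.18, adjusted p = 6.9e-05) under anti-PD-1.

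Among the core subunits, Ndufs1 (chr1:63143596-63176833, minus strand), which carries iron-sulfur clusters, was at 295, 227, 228, 183 and 263 CPM in lean IgG2a and 110.4, 123, 90.6, 99.1 and 95.1 in obese IgG2a mice. The obese values were tight, and the highest of them was well below the lowest lean value. Ndufs1 fell by 1.21 (SE 0.19) under IgG2a and by 0.82 (SE 0.17) under anti-PD-1, where lean values were 160.2, 196, 207, 233 and 177 CPM and the lowest, median and highest obese values 68.3, 116 and 143. Ndufv1, which binds NADH and flavin, fell by 1.22 and 1.18 under the respective antibodies. Ndufs7 and Ndufs8, iron-sulfur subunits near the quinone site, fell by 1.35 and 1.09 under IgG2a and by 1.11 and 1.39 under anti-PD-1. Ndufab1, the acyl carrier protein that is also part of mitochondrial fatty acid synthesis, fell by 1.40 and 1.22.

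Ndufb9, an accessory subunit of the membrane arm, had the largest change of complex I in both comparisons. It was at 500.2, 320.4, 217, 224 and 352 CPM in lean and 154, 117, 115, 85.5 and 51.8 in obese IgG2a mice, and fell by 1.62 (SE 0.35). Its fall under anti-PD-1 was 1.62 (SE 0.30). At the other end, Ndufa2 was at 247, 122, 72.6, 115 and 114 CPM in lean and 187, 64.4, 121, 36 and 29.7 in obese IgG2a mice. Obese IgG2a 1 and 3, both rich in B cell RNA, overlapped the lean mice, and the value of -0.61 (SE 0.45, adjusted p = 0.52) did not pass. Ndufb3 had the smallest change under anti-PD-1, -0.46 (SE 0.36, adjusted p = 0.48), with obese anti-PD-1 1, 4, 7 and 8 inside the lean range. Complex I held 7 of the 9 subunits called under neither antibody: Ndufa1, Ndufa2, Ndufa3, Ndufa7, Ndufb2, Ndufb3 and Ndufs5.

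Ndufb4 is uncertain. Its transcripts share 38.3% of their 31-base stretches with the processed pseudogene Ndufb4c, which was assigned 330% of the count of Ndufb4, and reads can be split between them. Ndufb4 was at -1.19 (adjusted p = 0.041) under IgG2a and -0.52 (0.3) under anti-PD-1, and Ndufb4c at -0.88 (0.083) and -0.55 (0.20). Ndufb6 shares 36.1% of such stretches with the overlapping gene Smim27, which had 11.4% of its count. For the 14 other subunits that share at least 20% with a listed gene, each such gene held less than 3% of their counts. Exons of 19 subunits overlap those of another gene in the deposited files. Ndufb9 overlaps Gm49356, a gene absent from those files, by up to 193 bases on the same strand. The libraries keep no strand, so reads in the shared stretches cannot be told apart.

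Complex II, succinate dehydrogenase, is the complex with no mitochondrial-encoded subunit, and all 4 of its genes fell under both antibodies (medians -1.25 and -1.16). Sdha (chr13:74322254-74350280, minus strand), the flavin-bearing catalytic subunit whose promoter holds 3 NRF1 matches, was at 1192, 877, 777, 648 and 927 CPM in lean IgG2a and 390.5, 360.2, 305, 354 and 269.7 in obese IgG2a mice. Under anti-PD-1 it was at 730.2, 940.0, 822, 1015 and 842 in lean mice, with 204, 428 and 492 as the lowest, median and highest obese values. No obese library reached a lean one. Sdha fell by 1.40 (SE 0.23, adjusted p = 0.00092) and by 1.14 (SE 0.20, adjusted p = 0.00091). Sdhb, the iron-sulfur subunit, fell by 1.27 (SE 0.24) and 1.52 (SE 0.21), with lean values of 222, 284, 240.1, 312 and 263 CPM and obese values of 70.5, 95.6 and 112 (lowest, median, highest) under anti-PD-1. The membrane anchors Sdhc and Sdhd fell by 1.23 and 1.18 under IgG2a and by 0.87 and 1.18 under anti-PD-1. Of the 4 genes, Sdhc was the exception to the separation of groups under anti-PD-1, since obese anti-PD-1 7 (196 CPM) met lean anti-PD-1 1 (196 CPM).

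Complex III, which feeds cytochrome c, had the largest median change of the chain under either antibody. Under IgG2a 7 of 9 genes fell (median -1.44), and under anti-PD-1 8 of 9 (median -1.39). Uqcrc2, a core protein, varied least between mice of a group among all 58. It was at 360.0, 306, 279.9, 248 and 324 CPM in lean IgG2a and 113, 122, 106, 114 and 76.3 in obese IgG2a mice. Under anti-PD-1 it was at 219, 298, 275, 312 and 284 in lean mice, and 103, 110.1 and 157 were the lowest, median and highest obese values. Every obese value lay far below every lean one, and the adjusted p under anti-PD-1 was 1.9e-05 for a fall of 1.22 (SE 0.15).

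Uqcrq (chr11:53427922-53430831, minus strand), a small subunit near the ubiquinone site, had the largest change of all 58 in both comparisons. It was at 605, 338, 274, 282 and 375 CPM in lean IgG2a and 172, 135, 134, 77.1 and 57.1 in obese IgG2a mice. Under anti-PD-1 it was at 247, 349.6, 414, 382 and 412 in lean mice, with 57, 91.2 and 158 as the lowest, median and highest obese values. The groups were apart, though lean IgG2a 1 was well above the other lean mice. Uqcrq fell by 1.71 (SE 0.34, adjusted p = 0.0045) and 1.88 (SE 0.29, adjusted p = 0.0003). The catalytic subunits also fell: the Rieske iron-sulfur protein Uqcrfs1 by 1.44 and 1.47, and cytochrome c1 (Cyc1) by 1.46 and 1.46. The core protein Uqcrc1 fell by 1.24 and 1.08. Uqcrh, the hinge protein, was at -0.91 (adjusted p = 0.27) under IgG2a, where obese IgG2a 1 and 3 had 326 and 243 CPM, inside the lean range. It fell by 1.39 under anti-PD-1. Uqcr11 passed under neither (-1.32 and -1.13, SE 0.55 and 0.48).

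Complex IV, cytochrome c oxidase, held the 3 subunits of highest median TPM in lean IgG2a mice, Cox6a1 (2331 TPM), Cox8a (2093) and Cox4i1 (2072). Under IgG2a 5 of its 10 genes fell (median -1.24), and under anti-PD-1 8 of 10 (median -1.30). Cox6a1 (chr5:115345642-115348981, minus strand), the general form of a regulatory subunit, was at 1408, 881, 671, 628 and 945 CPM in lean IgG2a and 526, 383, 366, 297 and 133 in obese IgG2a mice. Under anti-PD-1 it was at 645, 865, 864, 786 and 775 in lean mice, and 164, 309 and 440.0 were the lowest, median and highest obese values. Groups did not overlap under either antibody. Cox6a1 fell by 1.41 (SE 0.34, adjusted p = 0.017) and 1.42 (SE 0.30, adjusted p = 0.0038).

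Cox4i1, a nuclear subunit that joins early in assembly, was at 1707, 1168, 793, 873 and 1246 CPM in lean and 957, 462, 638, 376 and 227 in obese IgG2a mice. Obese IgG2a 1 exceeded lean IgG2a 3 and 4, and the value of -1.12 (adjusted p = 0.054) just missed the threshold. Under anti-PD-1 Cox4i1 fell by 1.40, as did Cox5a (by 1.62), Cox5b (1.38) and Cox7b (1.45), all of which were short of the threshold under IgG2a (-1.22, -1.23 and -1.14 for the last 3). Cox8a went the other way: it fell by 1.25 under IgG2a (adjusted p = 0.047), and was at -0.82 (0.11) under anti-PD-1. Its anti-PD-1 values were 352, 559, 684, 444 and 520.4 CPM in lean mice, and 142, 283 and 476 were the lowest, median and highest obese values, which overlap. Cox7c passed in neither comparison (-1.17 and -1.01). The interaction test called none of these differences between antibodies.

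**Figure D3:**
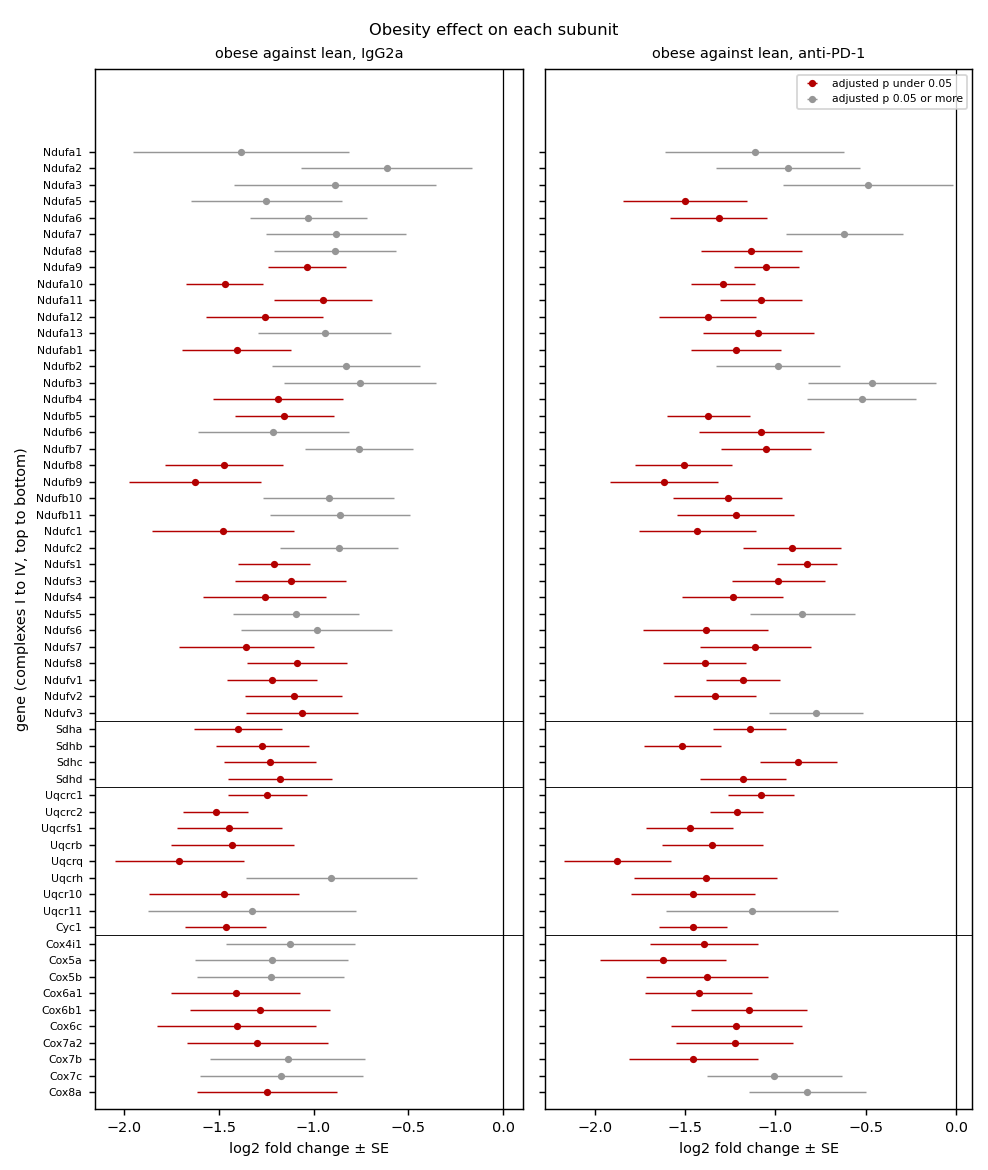
Log2 fold change of obese against lean, with its SE, for each of the 58 subunits under IgG2a (left) and anti-PD-1 (right). Every point lies left of 0, red points passed an adjusted p under 0.05 (34 and 46), and gray points did not.

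The spread between mice of a group went with transcript length: Spearman's rho between the within-group SD of log2 CPM and the mean transcript length was -0.63 over the 58 genes, which share the same 23 libraries. The lowest SDs were those of Uqcrc2 (0.224) and Ndufs1 (0.273), and the highest those of Uqcr11 (0.959) and Ndufa1 (0.995). For the change itself rho was near 0 (0.13 under IgG2a and 0.05 under anti-PD-1). The 29 subunits with the shorter transcripts (329.6 to 643 bases) had 14 and 19 calls, with medians of -1.25 and -1.22. The 29 longer ones (651 to 2661 bases) had 20 and 27 calls, with medians of -1.21 and -1.18. Whether RNA quality enters this spread was not tested.

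**Figure D4:**
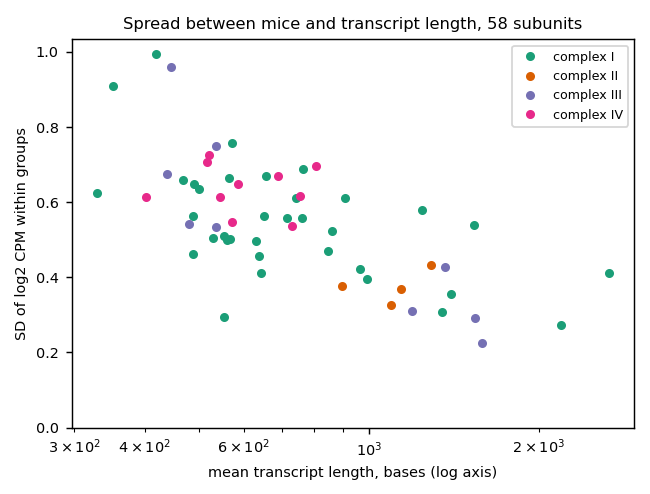
SD of log2 CPM between mice of the same group against mean transcript length (log axis) for the 58 subunits, coloured by complex. The points fall from upper left to lower right (rho -0.63), with Ndufa1 highest at 0.995 and Uqcrc2 lowest at 0.224.

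Every obese library lay below every lean library for 30 of the 58 subunits under IgG2a, where this held for 4.42% of all genes, and for 43 of 58 under anti-PD-1, where it held for 3.11%. Obese IgG2a 1 reached the lowest lean library for 28 subunits, obese IgG2a 3 for 11, obese IgG2a 2 for 1, and obese IgG2a 4 and 5 for 0. Under anti-PD-1, obese libraries 1, 4, 7 and 8 did so for 10, 11, 13 and 10 subunits, and libraries 2, 3, 5 and 6 for 0.

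Some markers of other cell types moved with obesity too. A list of 16 mammary epithelium genes had a score (mean log2 CPM) of 6.02 to 6.97 in lean and 4.11 to 5.37 in obese IgG2a mice, and under anti-PD-1 it was 5.71 to 7.44 against 3.89 to 6.16. Its summed level was 1819 to 3078 CPM against 694 to 1377, and 1617 to 5554 against 476 to 2327. Of the 16, 4 fell under IgG2a (3.12% of all genes fell) and 12 under anti-PD-1 (4.85% of all genes), and 0 were at 0 in every library. With that score as a covariate, 9 subunits were called lower under IgG2a (1.05% of all genes) and 11 under anti-PD-1 (1.51% of all genes), with medians of -1.09 and -1.10. Lean and obese IgG2a mice did not overlap in this score, so diet and score are hard to tell apart in that fit. The part of epithelium in the lower chain level was not tested. The score of 14 fat cell genes was 9.60 to 11.2 in lean and 8.80 to 10.5 in obese IgG2a mice, and with it as a covariate 20 subunits were called lower under IgG2a (2.91% of all genes, median -0.99) and 48 under anti-PD-1 (10.4% of all genes, median -1.15). Under anti-PD-1 the fat cell score ranged from 9.79 to 10.7 in lean mice (median 10.4) and from 8.04 to 10.7 in obese mice (median 10.5). The score of 13 macrophage genes was higher in every obese IgG2a mouse (5.36 to 6.05) than in lean ones (4.65 to 5.32). Of the 13 genes 4 were called higher, as were 532 of all 19882 tested, and the list median was 0.69. Under anti-PD-1 the macrophage score was 4.72 to 5.59 in obese and 4.83 to 5.23 in lean mice. There 1 gene was called higher and 1 lower, beside 1034 and 965 of all genes. Of 13 skeletal muscle genes 8 fell under anti-PD-1 and 0 under IgG2a. Under anti-PD-1 their score was -1.81 to 0.62 in obese mice. Only the muscle-rich lean anti-PD-1 1 and 2 lay above that range, at 5.92 and 7.52. Lean anti-PD-1 3, 4 and 5 were at -1.05, -2.04 and -2.26, within or below it. The part of macrophage RNA in the lower chain level was not tested.

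Without the 5 libraries rich in muscle RNA, 3 subunits were called lower under IgG2a (0.458% of all genes, median -1.01), with 3 lean and 4 obese mice left. Under anti-PD-1 36 were (2.41% of all genes, median -1.29). In the B cell-rich libraries alone, 7 were called lower under IgG2a (median -0.73), where 5.89% of all genes were. Under anti-PD-1 11 were (2.53% of all genes, median -1.14). In the B cell-poor libraries 39 were called lower under anti-PD-1 (6.3% of all genes, median -1.34). Under IgG2a the B cell-poor set holds 1 lean mouse, lean IgG2a 5, against 3 obese mice. Its median of -1.72 and its 12 calls (1.11% of all genes) rest on that mouse, which the fit assumes to vary like the other groups. Other arms were small too. The B cell-rich obese mice were obese IgG2a 1 and 3 and obese anti-PD-1 3 and 4. The B cell-poor lean anti-PD-1 mice were 2 and 4, the former also rich in muscle RNA. The difference between these subsets was not tested. Leaving out lean IgG2a 1, the highest library, left 16 calls under IgG2a (1.72% of all genes) with a median of -0.95, and leaving out the liver-marked obese IgG2a 5 left 16 (1.92% of all genes) with a median of -0.97. Leaving out lean IgG2a 5, obese IgG2a 2 or obese IgG2a 4 left 22, 21 and 21. Of the 34 calls, 16 held with each library left out in turn: Ndufa9, Ndufa10, Ndufab1, Ndufb8, Ndufb9, Ndufs1, Ndufv1, Sdha, Sdhb, Sdhc, Uqcrc1, Uqcrc2, Uqcrfs1, Uqcrb, Uqcrq and Cyc1. Under anti-PD-1 36 of the 46 held, and the 10 that did not were Ndufa13, Ndufb6, Ndufb11, Ndufc2, Ndufs3, Ndufs7, Uqcrh, Cox6b1, Cox6c and Cox7a2.

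Complex IV has tissue isoforms, found in muscle, heart or brown fat, or in lung for Cox4i2, and 2 of them fell relative to their general partners. Cox7a1 was at 363, 30.9, 85, 141 and 32.5 TPM in lean IgG2a and 10.0, 14.2, 5.71, 11 and 4.50 in obese IgG2a mice, and its general partner Cox7a2 at 475, 291, 255, 248 and 309.6 and 227, 193, 140.4, 144 and 73.2. Lean IgG2a 1, richest in muscle RNA, was highest. In the lean anti-PD-1 libraries 3 to 5, where Ckm was at most 0.0753 CPM, Cox7a1 was at 131, 73.9 and 95.2 TPM. In lean IgG2a 3 to 5, where Ckm was at most 1.97 CPM, Cox7a1 was at 85, 141 and 32.5 TPM. The part of muscle RNA in the level of Cox7a1 was not tested. The log2 ratio of Cox7a1 to Cox7a2 (TPM + 0.1) was lower in obese mice by 2.25 under IgG2a (exact two-sided permutation test, p = 0.0079, adjusted p = 0.016 over 8 tests) and by 2.04 under anti-PD-1 (p = 0.0016, adjusted p = 0.0041). The smallest p these designs allow is 0.0079 and 0.0016. In the fit over all genes Cox7a1 fell by 4.25 (SE 0.71) and 2.95 (SE 0.56).

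Cox8b, the brown fat and muscle form, was at 1975, 384, 432, 689.5 and 555 TPM in lean IgG2a and 207, 109.8, 62.2, 23.8 and 4.95 in obese IgG2a mice. Under anti-PD-1 it was at 432, 605, 895, 358 and 573 in lean mice, with 7.47, 39.1 and 86 as the lowest, median and highest obese values. No obese library reached the lowest lean one in TPM, but the ratio to Cox8a was higher in obese IgG2a 1 (log2 -2.20) than in lean IgG2a 2 (-2.45). The log2 ratio was lower by 2.93 (exact permutation p = 0.016, adjusted p = 0.025) and 3.82 (p = 0.0016, adjusted p = 0.0041), while leaving out 1 library under IgG2a lost the call in 8 of 10 cases (adjusted p = 0.051, difference -3.13 to -2.40). The gene fell by 3.49 (SE 0.87) and 4.27 (SE 0.74). Both isoforms are also on the list of 11 thermogenic genes, whose score was 3.84 to 6.48 in lean and 0.07 to 1.67 in obese IgG2a mice, and 4.57 to 5.61 and 0.46 to 2.70 under anti-PD-1. Ucp1, the uncoupling protein that defines heat-producing fat cells, was at 603, 6.34, 77.4, 223 and 18.3 CPM in lean IgG2a and at most 0.694 in obese IgG2a mice. The part of thermogenic cells in the fall of the chain was not tested.

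Cox4i2, a form found in lung, was low everywhere (5.00 to 15.1 TPM) and did not pass in the fit (-0.49 and -0.17). Its log2 ratio to Cox4i1 was 0.67 higher in obese mice under IgG2a (exact permutation p = 0.040, adjusted p = 0.053) and 1.36 higher under anti-PD-1 (p = 0.0016, adjusted p = 0.0041). Without obese IgG2a 1 the former was 0.84 (exact permutation, adjusted p = 0.021). Cox6a2, a muscle form, was highest in 2 of the muscle-rich libraries, with 30.2 TPM in lean IgG2a 1 and 25.8 in lean anti-PD-1 2, and was listed at 0 in lean anti-PD-1 4 and 5. Its ratio to Cox6a1 did not pass under either antibody (exact permutation p = 0.47 and 0.26, adjusted p = 0.47 and 0.30).

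**Figure D5:**
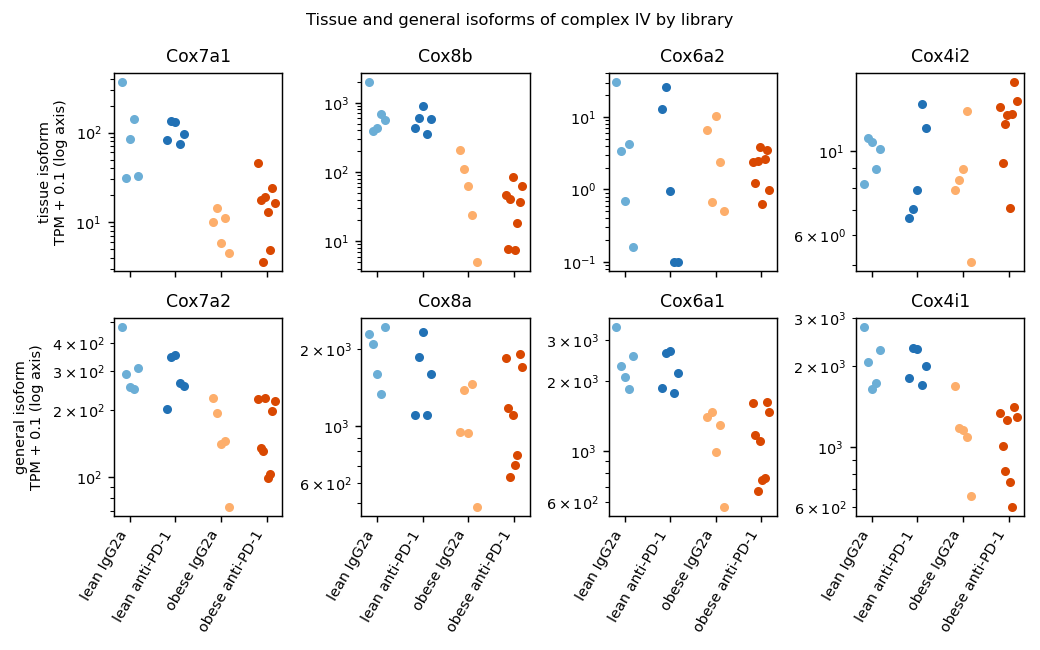
TPM + 0.1 (log axes) of 4 tissue isoforms of complex IV (top row) and their general partners (bottom row), 1 point per library by group. In both obese groups Cox7a1 and Cox8b lie below every lean library given the same antibody. Cox6a2 is highest in muscle-rich lean libraries, and Cox4i2 lean and obese values overlap.

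PD-1 blockade was not seen to change the chain. These comparisons use the same libraries as the obesity comparisons, and the direction of their medians turned with single libraries. In lean mice 0 of 58 subunits were called, as were 0 of all genes (edgeR, 0% called), and the median was -0.13, against -0.04 over all genes. In obese mice 0 of 58 were called, where 0.538% of all genes were, with a median of -0.16 against 0.00 over all genes. Without lean IgG2a 1 the lean median was 0.05, and without the muscle-rich libraries 0.19, with 52 of 58 subunits above 0. Without obese IgG2a 1 the obese median was 0.04, and without obese IgG2a 5 it was -0.40. The interaction, which asks whether the obesity effect differs between antibodies, called 0 of 58 and 0% of all genes, with a median of 0.01. In none of the 3 tests did a subunit reach an unadjusted p under 0.05, and DESeq2 called 0 subunits as well. Over all genes, 472 in lean mice, 2700 in obese mice and 1449 in the interaction had an unadjusted p under 0.05 by edgeR, and DESeq2 called 22, 400 and 50. Changes ranged from -0.65 to 0.14 in lean and from -0.59 to 0.36 in obese mice, with SEs of 0.17 to 0.56 and 0.15 to 0.50. Interaction values ranged from -0.48 to 0.67 with SEs of 0.23 to 0.75, and a p that misses the threshold does not show equal levels. Ndufs1 had the smallest p in lean mice (-0.30, SE 0.19, adjusted p = 1) and for the interaction (0.38, SE 0.25, adjusted p = 0.76). In obese mice it was Cox5a (-0.59, SE 0.35, adjusted p = 0.47).

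Genes around the chain were counted in lists, beside which stand the 3.12% of all genes that fell under IgG2a and the 4.85% under anti-PD-1. Of 16 ATP synthase genes, which use the proton gradient, 6 fell under IgG2a (median -0.87) and 10 under anti-PD-1 (-0.98), with Atp5c1 at -1.03 and -0.97 and Atp5a1 at -1.05 and -1.02. Atp5o fell by 0.88 and 1.28. Of 16 genes for mobile carriers, coenzyme Q synthesis and supercomplexes, 8 and 9 fell (medians -0.77 and -0.67). Coq8a, a kinase-like protein of coenzyme Q synthesis, fell by 2.03 (SE 0.23, adjusted p = 9.5e-06) and 1.51 (SE 0.19, adjusted p = 3.5e-05). It was at 279, 142, 141, 170.4 and 146 CPM in lean and 34.7, 28.5, 40.2, 48 and 63 in obese IgG2a mice, far apart. Cytochrome c (Cycs), the carrier between complexes III and IV, fell by 1.44 and 1.47, and Coq9, also of coenzyme Q synthesis, by 1.49 and 0.91. The supercomplex factor Cox7a2l did not pass (0.13 and -0.47, SE 0.43 and 0.38).

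Of 40 assembly factors, 39 were tested and 8 fell under each antibody (medians -0.55 and -0.50), with Ndufaf4 of complex I at -0.91 and -0.87 and Bcs1l, which inserts the Rieske protein into complex III, at -0.77 and -1.02. Cox20 of complex IV fell by 1.29 under IgG2a and was at -0.73 (adjusted p = 0.055) under anti-PD-1. Of 25 mitochondrial ribosome genes 4 and 12 fell (medians -0.44 and -0.65), Mrps15 by 1.10 and 1.28. Of 21 membrane and import genes 1 and 7 fell (medians -0.44 and -0.51). The count of 1 under IgG2a is close to the share of all genes. The protease Clpp fell by 0.86 and 0.87. Of 21 cytosolic ribosomal protein genes 0 fell under either antibody, and their medians were 0.44 under IgG2a and -0.55 under anti-PD-1. Rpl32 was at 0.87 and -0.37, and Rpl3 at 0.44 and -0.67. Of the 18 mitochondrial regulators 2 fell in each comparison (medians -0.11 and -0.14). Ppargc1b, a PGC-1 coactivator, and Tfb2m, a mitochondrial transcription factor, fell under IgG2a by 1.28 and 0.72. Esrra, which encodes ERRα, and Twnk, the mitochondrial DNA helicase, fell under anti-PD-1 by 0.72 and 0.84. Ppargc1a did not pass and its values differed in sign, -1.59 (SE 0.52, adjusted p = 0.072) and 0.23 (SE 0.46, adjusted p = 0.84). The promoter-binding factors Nrf1 (0.35 and -0.00) and Gabpa (0.21 and 0.30) did not pass either, nor did Tfam (0.09 and -0.26).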

How the data were processed

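Poly(A)-enriched, non-directional libraries were made from 23 mice, per the labels' protocols. The deposited files give, per transcript, estimated counts (not normalized) and TPM (scaled to transcript length and library total by the authors). The submitters' processing notes name edgeR, limma and GRCm38. No source used here names the quantifier. Of 115088 transcripts, 114200 matched GENCODE M21, and the rest held at most 0.208% of any library's counts. Both values were summed per gene, and counts were rounded for the tests. With edgeR 4.0.16 in R 4.3.3 (filterByExpr, minimum count 10; TMM; robust quasi-likelihood fit of 1 mean per group over all 23 libraries) 5 two-sided comparisons were tested, with Benjamini-Hochberg adjustment over 19882 genes and a threshold of 0.05. CPM are TMM-scaled. Isoform ratios were tested by exact permutation of libraries (SciPy 1.17.1). The code was tested on simulated data.

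Members and lists were chosen with earlier results of these data known. Named by rule were, per complex, the subunits of smallest p, largest and smallest change, those not called in complexes II to IV, some core subunits, and the genes of smallest p per surrounding list. Ndufb4, Ndufb4c, Ndufb6, Smim27 and the libraries singled out were chosen after their values were seen. Alternatives were DESeq2 1.42.0, limma 3.58.1 (voom with quality weights, or log2 (TPM + 1)), other filters, marker scores as covariates, subsets of libraries and each library left out in turn. A marker score is the mean log2 CPM (prior count 2) of its list.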

Additional observations from a re-analysis of the deposited data

Results flagged for a closer look

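Among 100 sets of 4 to 10 mice of a group, 5 held a mouse far from the rest for a described value, where chance gives about 1 in 20. Lean IgG2a 1 was the far library for 3 subunits: Ndufv1 (415 CPM, the next at 249), Uqcrfs1 (589 CPM, the next at 328) and Cox5a (429 CPM, the next at 234). This library also had the highest skeletal muscle score (7.54), and the part of muscle RNA in these values was not tested. Cox8a was at 104 CPM in obese IgG2a 5, the library rich in liver RNA, and the next obese IgG2a mouse was at 308. The log2 TPM ratio of Cox7a1 to Cox7a2 was -1.84 in lean anti-PD-1 4, and the next was -1.44.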

How the results depend on the processing

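For the 34 subunits lower in obese IgG2a mice, the number called (with the median log2 change, -1.21 in the reported fit, and the percent of all genes called lower, 3.12%) was 20 with the fat cell score as covariate (-0.99, 2.91%), 9 with the mammary epithelium score (-1.09, 1.05%) and 17 with the skeletal muscle score (-1.04, 1.88%). It was 15 with the IgG2a groups alone in the fit (-1.22, 1.89%), 55 by voom with quality weights (-1.29, 10.3%) and 3 without the 5 muscle-rich libraries (-1.01, 0.458%). It was 7 in the B cell-rich libraries (-0.73, 5.89%) and 12 in the B cell-poor ones (-1.72, 1.11%), where a single lean mouse, assumed to vary like the other groups, makes up an arm. Leaving out each library in turn gave 16 to 44, the lowest without lean IgG2a 1 or obese IgG2a 5. For the 46 under anti-PD-1, the epithelium score gave 11 (-1.10, 1.51%) and the B cell-rich libraries 11 (-1.14, 2.53%), while leaving out each library gave 36 to 49. The cause was not tested. Antibody and interaction counts stayed at 0 in every alternative run. Ndufa2 turned to 0.17 (adjusted p = 0.85) in the B cell-rich IgG2a libraries. Among isoform ratios, Cox4i2/Cox4i1 under IgG2a passed with a pseudocount of 1 (0.70, exact permutation, adjusted p = 0.042), and it ranged from 0.50 to 0.84 with each library left out. Without the muscle-rich libraries Cox7a1/Cox7a2 (-2.10) and Cox8b/Cox8a (-2.93) under IgG2a did not pass (adjusted p = 0.076), since the smallest p of that design is 0.057, and Cox6a2/Cox6a1 under anti-PD-1 passed (4.17, adjusted p = 0.024), a size set by the pseudocount of 0.1, since Cox6a2 is listed at 0 in 2 of the 3 lean libraries left. Cox8b/Cox8a under IgG2a ranged from -3.49 to -2.40, missing the threshold in 8 of 10 cases (adjusted p = 0.051). No paired analysis was possible because the labels give no replicate numbers shared between groups. Estimated counts bound counting error only.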
